A study of Mus musculus with 16 samples.

Results

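Gene expression was compared between the ventricles of 4 control mice subjected to transverse aortic constriction (TAC) and those of 4 control mice subjected to sham surgery. These 8 hearts were all the control hearts among the 16 of the series, and they were chosen by their labels alone. All were from male aMHC-MerCreMer;Trbp-Flox/Flox mice given corn oil for 5 days at the age of 4 weeks. Surgery followed 4 weeks later, and hearts were collected in mice 16 weeks old, about 8 weeks after the operation. Their Trbp gene was floxed, and the cardiomyocyte promoter of alpha-myosin heavy chain drove a MerCreMer recombinase, which needs tamoxifen to act. Since they received the oil without tamoxifen, Trbp was left intact, but the transgene was present in both groups. The other 8 hearts came from mice of the same genotype given tamoxifen instead (Trbp-cKO), 4 after TAC and 4 after sham surgery, and were used for comparison. The question was which genes pressure overload changed when Trbp was intact, and how evenly the 4 TAC hearts responded.

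In TAC, a suture narrows the aortic arch, so that the left ventricle must pump against a higher pressure. Cardiomyocytes enlarge and express genes of the fetal heart, such as the natriuretic peptides, while fibroblasts deposit collagen and other matrix proteins, a process in which TGF-β signaling is a central regulator. In failing hearts, the genes of fatty acid oxidation and of calcium cycling are commonly reduced.

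The 4 TAC libraries differed from each other more than the 4 sham libraries did on average. Over the 500 genes that differed most in each pair of hearts, TAC replicates 1 and 2 were as near to each other (log2 distance 2.52) as sham hearts were (2.52 to 2.64). TAC replicates 3 and 4 had a mean log2 distance of 3.05 and 2.97 to the other 3 TAC hearts and of 2.94 and 2.76 to the sham hearts, but they were nearest to each other, at 2.70, whereas TAC replicates 1 and 2 were at 2.89 and 3.01 to their own group and 3.31 and 3.53 to the sham hearts. Total counts were 58788152 to 66195343 per sham heart and 55552919 to 65150751 per TAC heart. Transcripts of the mitochondrial chromosome took 25.0% to 26.3% of the counts in sham hearts, and 38.2%, 38.8%, 25.2% and 21.7% in TAC replicates 1 to 4, so replicates 1 and 2 stood above all others (difference of means, exact permutation test, two-sided p = 0.371). The SD of log2 expression was larger among TAC than among sham hearts for 76.1% of genes. Markers of ventricular cardiomyocytes (11 of 11 tested) summed to 61564 to 65257 CPM (read counts relative to the TMM-normalized total) in sham hearts, and to 31166, 24491, 60141 and 60474 CPM in TAC replicates 1 to 4. Tarbp2, which encodes Trbp, was measured at 30.6, 32.7, 33.3 and 32.4 CPM in sham and at 25.2, 21.1, 30.6 and 31.1 CPM in TAC hearts (log2 fold change -0.26 ± 0.13 (SE), adjusted p = 0.22). The 4 defining markers of adipocytes and the atrial markers Sln and Bmp10 were below the filter on low counts. In bulk tissue, fewer cells of a type and less RNA per cell cannot be told apart. Throughout, the values of 4 hearts are given in the order of replicates 1 to 4.

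Of the 19955 genes tested, 498 (2.5%) were higher and 250 (1.25%) were lower in control TAC than in control sham hearts, by edgeR's quasi-likelihood test with an adjusted p of at most 0.05 and a log2 fold change of at least 0.8 in size. The counts of called genes given below for gene lists are to be read against these shares. The fit also drew on the 8 Trbp-cKO hearts for its estimate of the spread, and with only the 8 control hearts in it 194 genes were higher and 110 lower. Of the 99 named genes called, chosen by the rules described with the processing, 39 lost their call in that fit. Losses of a call given below for single genes refer to fits without 1 heart unless another fit is named. The matrix glycoprotein genes Comp and Cilp, the fibroblast gene Postn and the natriuretic peptide gene Nppa were among the genes that rose, and the glycogen-binding protein gene Stbd1, the acyl-CoA thioesterase gene Acot1 and the thrombospondin gene Thbs1 were among those that fell. Levels of the 4 TAC hearts lay wholly above or below those of the 4 sham hearts for 433 of the 498 and 238 of the 250 genes. Among all genes tested, that was so for 8.64% (above) and 8.78% (below). At an unadjusted p under 0.05, 15.4% of all genes tested were higher and 11.2% lower, and counts of that kind given below for gene lists are to be read against these shares. The counts depended on single hearts. They were 192 higher and 85 lower without TAC replicate 1, 208 and 102 without TAC replicate 2, 885 and 555 without TAC replicate 3, and 1035 and 548 without TAC replicate 4. Leaving out sham replicates 1, 2, 3 and 4 in turn gave 302, 245, 229 and 240 higher and 148, 128, 128 and 114 lower genes. In the fits without each of the 8 hearts in turn, 160 of the 498 and 69 of the 250 genes kept their call every time. Without both TAC replicates 1 and 2, a setting chosen after seeing the data, 87 genes were higher and 34 lower, among them 73 of the 498 and 31 of the 250.

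**Figure D1:**
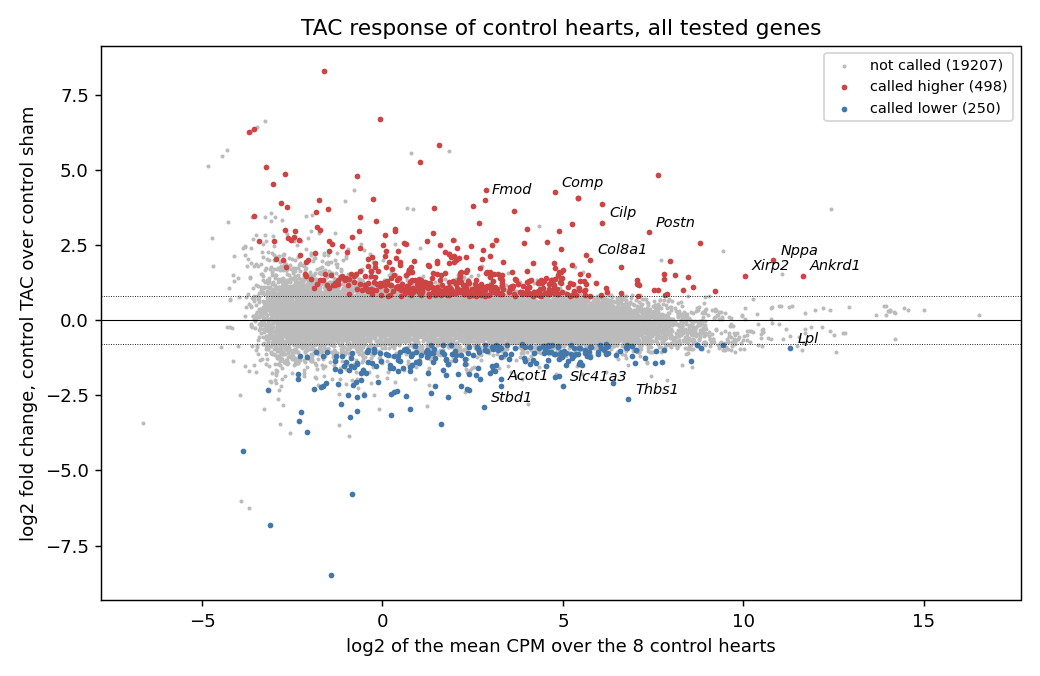
Log2 fold change of control TAC over control sham hearts (y axis) against the log2 of the mean CPM over the 8 control hearts (x axis) for the tested genes, 1 point per gene. Red points are the 498 genes called higher, blue points the 250 called lower, and dotted lines mark the log2 fold change of 0.8; 1 gene without counts in these hearts is not drawn.

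Several genes of the stressed cardiomyocyte were higher in all 4 TAC hearts than in every sham heart. Of the 15 genes of the hypertrophy and fetal program, 6 rose (Nppa, Nppb, Ankrd1, Xirp2, Fhl1 and Nmrk2) and 1 fell (Acta2), and the median log2 fold change was 0.71, beside 0.02 over all genes tested. Ankrd1 (ENSMUSG00000024803, chr19:36111961-36120099 in GRCm38) encodes a stretch-responsive protein of the sarcomere and nucleus. It was measured at 1692, 1823, 1605 and 1635 CPM in sham hearts and at 4710.3, 4804, 4336 and 4969 CPM in TAC hearts. All 4 TAC hearts lay close together and far above the sham hearts (log2 fold change 1.48 ± 0.14 (SE), adjusted p = 7.24e-05). Xirp2, an actin-binding protein of the intercalated disc, went from 502, 542, 627 and 547 CPM in sham to 1136, 1526, 1483 and 2037 CPM in TAC hearts, with TAC replicate 4 the highest and replicate 1 the lowest (log2 fold change 1.48 ± 0.26, adjusted p = 0.00572). The nicotinamide riboside kinase gene Nmrk2, an enzyme of NAD synthesis, was also higher in every TAC heart (41.5, 58.4, 34.3 and 36.7 CPM) than in every sham heart (10.2, 9.28, 15.1 and 11.4 CPM, log2 fold change 1.89 ± 0.21, adjusted p = 0.000352).

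The natriuretic peptides, hormones that the loaded heart secretes, rose less evenly. Nppa was measured at 597, 775, 1016 and 539.7 CPM in sham and 3858, 3404, 1615 and 2800.4 CPM in TAC hearts. TAC replicate 3 was the lowest of its group, but the groups did not overlap (log2 fold change 2.00 ± 0.27 (SE), adjusted p = 0.00109). An antisense transcript, Gm13054, covers 61.5% of the exonic length of Nppa, and reads of both genes cannot be told apart if the counting ignored strand. Nppb was measured at 270.0, 258, 255 and 219.6 CPM in sham and 631, 714, 288 and 496 CPM in TAC hearts, and TAC replicate 3 was only just above the sham hearts (log2 fold change 1.09 ± 0.25, adjusted p = 0.0229). The call of Nppb was lost in 6 of the 8 fits that left out 1 heart (adjusted p up to 0.0762). These were the only called genes among 9 of the natriuretic peptide system.

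Other genes of this program were highest in TAC replicates 3 and 4. Fhl1, a LIM protein that senses stretch in the sarcomere, was measured at 107, 119, 152 and 120.4 CPM in sham and 209, 254, 354 and 469 CPM in TAC hearts (log2 fold change 1.37 ± 0.34, adjusted p = 0.0298). Its call was lost in 5 of the 8 fits without 1 heart, the highest adjusted p being 0.0816. Skeletal α-actin (Acta1) stood at 889.7, 1171, 1306 and 1017 CPM in sham and 1754, 1944, 3171 and 5778 CPM in TAC hearts; the groups did not overlap, yet edgeR's quasi-likelihood test was not passed (log2 fold change 1.53 ± 0.52, adjusted p = 0.0865). By edgeR's exact test on the 8 control hearts, DESeq2 and limma-voom, Acta1 was called higher (adjusted p down to 0.00375). Smooth muscle α-actin (Acta2), in contrast, was lower in each TAC heart (109, 87.2, 81.4 and 86.6 CPM) than in each sham heart (186, 253, 292 and 149 CPM, log2 fold change -1.27 ± 0.27, adjusted p = 0.0164). Without sham replicate 3 or TAC replicate 2, the call of Acta2 was lost (adjusted p up to 0.0558).

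The share of β-myosin heavy chain (Myh7), the slow isoform of the fetal ventricle, among both cardiac isoforms was higher in every TAC heart. Per kilobase of exon, Myh7 made up 5.11%, 4.79%, 4.55% and 5.11% of Myh6 plus Myh7 in sham hearts, and 11.3%, 16.1%, 8.11% and 8.29% in TAC hearts. The means were 4.89% ± 0.27 (SD, n = 4) and 11.0% ± 3.73 (SD, n = 4), a difference of 6.07 percentage points (two-sided p = 0.0286 by an exact permutation test, which cannot go lower with 4 against 4 hearts). The 4 TAC hearts reached this in different ways. In replicates 1 and 2, Myh6 was far below sham (21632, 23689, 23168 and 22834 CPM in sham, 9516, 7226, 20876 and 21102 CPM in TAC hearts), and in replicates 3 and 4 Myh7 itself was higher (1492, 1528, 1413 and 1574 CPM in sham, 1561, 1776, 2359 and 2444 CPM in TAC hearts). Neither gene passed the test alone (adjusted p = 0.204 for Myh6 and 0.112 for Myh7). Of the 75-base stretches in their transcripts, 13.7% of those of Myh6 occur in Myh7, and 10.6% of those of Myh7 in Myh6, so that some reads may have been assigned to either.

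Of 20 genes of the Z-disc and of mechanical stress, 4 rose and none fell. Besides Ankrd1, Xirp2 and Fhl1, this was Synpo2l, an actin-associated protein of the Z-disc, which was measured at 103, 119, 111 and 124 CPM in sham and 302, 367, 296 and 351 CPM in TAC hearts (log2 fold change 1.53 ± 0.21, adjusted p = 0.00109). Without TAC replicates 1 and 2, the same number of Z-disc genes, 4, was called higher.

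To show the regulatory sequence of genes that rose together, the 250 bases upstream of the RefSeq start site are given for 2 stress genes and 3 matrix genes whose windows hold no annotated exon. They lie at chr4:148000472-148000721 (plus strand, Nppa), chr2:67445752-67446001 (plus strand, Xirp2), chr16:57754738-57754987 (minus strand, Col8a1), chr3:54360857-54361106 (plus strand, Postn) and chr9:65264930-65265179 (plus strand, Cilp) in GRCm38.p6. Capitals mark matches, on either strand, to the motifs searched. The motif of TEAD factors was taken as GGAATG. That of AP-1, the dimer of Fos and Jun, was TGACTCA. For GATA factors it was AGATAA. The NKE site of the cardiac factor Nkx2-5 was AAGTGG. The estrogen-related receptors were represented by AAGGTCA. The E-box, a palindrome, was CACGTG. The SMAD site, for the effectors of TGF-β, was CAGACA. The CArG box of serum response factor and the MEF2 site were searched by their consensus.
Nppa: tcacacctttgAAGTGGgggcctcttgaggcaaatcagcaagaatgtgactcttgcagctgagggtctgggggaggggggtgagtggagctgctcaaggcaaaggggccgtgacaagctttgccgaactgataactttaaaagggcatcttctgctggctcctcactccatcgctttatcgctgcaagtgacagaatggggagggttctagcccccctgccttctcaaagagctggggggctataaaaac
Xirp2: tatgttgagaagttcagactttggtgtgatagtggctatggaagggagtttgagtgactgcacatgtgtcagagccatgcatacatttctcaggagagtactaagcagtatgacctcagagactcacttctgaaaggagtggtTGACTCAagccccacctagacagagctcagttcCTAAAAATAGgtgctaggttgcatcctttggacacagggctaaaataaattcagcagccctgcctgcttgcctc
Col8a1: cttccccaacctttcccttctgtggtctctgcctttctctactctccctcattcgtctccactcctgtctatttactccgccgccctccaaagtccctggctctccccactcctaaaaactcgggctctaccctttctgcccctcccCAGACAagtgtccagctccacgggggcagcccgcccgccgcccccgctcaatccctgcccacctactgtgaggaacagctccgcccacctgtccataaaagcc
Postn: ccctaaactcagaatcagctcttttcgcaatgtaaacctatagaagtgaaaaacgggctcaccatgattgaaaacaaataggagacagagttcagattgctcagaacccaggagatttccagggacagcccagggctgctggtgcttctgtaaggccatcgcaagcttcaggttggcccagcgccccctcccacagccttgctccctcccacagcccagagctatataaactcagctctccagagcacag
Cilp: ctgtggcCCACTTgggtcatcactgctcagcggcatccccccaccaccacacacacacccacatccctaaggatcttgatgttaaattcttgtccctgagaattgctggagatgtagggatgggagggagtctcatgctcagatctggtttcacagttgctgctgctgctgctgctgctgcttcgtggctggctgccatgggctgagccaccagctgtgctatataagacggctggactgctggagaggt
Xirp2 held an AP-1 motif 107 bases and a MEF2 motif, whose consensus matched on both strands, 74 bases upstream of its start. Col8a1 held a SMAD motif at 103 bases, and Nppa and Cilp each held an NKE motif, at 239 and 243 bases. None of these letters occurred in the window of Postn.

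Such windows were found for 13080 of the genes tested, 327 of them called higher and 159 called lower. The AP-1 motif occurred in 7.03% of the windows of genes called higher, 3.77% of those called lower and 3.20% of all, and the SMAD motif in 20.8%, 13.8% and 13.9%. For TEAD the shares were 11.9%, 15.1% and 10.9%, and for NKE 15.6%, 12.6% and 14.3%. The GATA motif was found in 7.03%, 8.81% and 6.35%, the motif of estrogen-related receptors in 2.14%, 3.14% and 2.93%, and the E-box in 7.03%, 2.52% and 7.93%. MEF2 and CArG motifs were rare, in 0.917%, 1.26% and 0.550%, and in 1.53%, 1.89% and 1.18%. These shares are descriptions of the letters in the windows and were not tested.

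**Figure D2:**
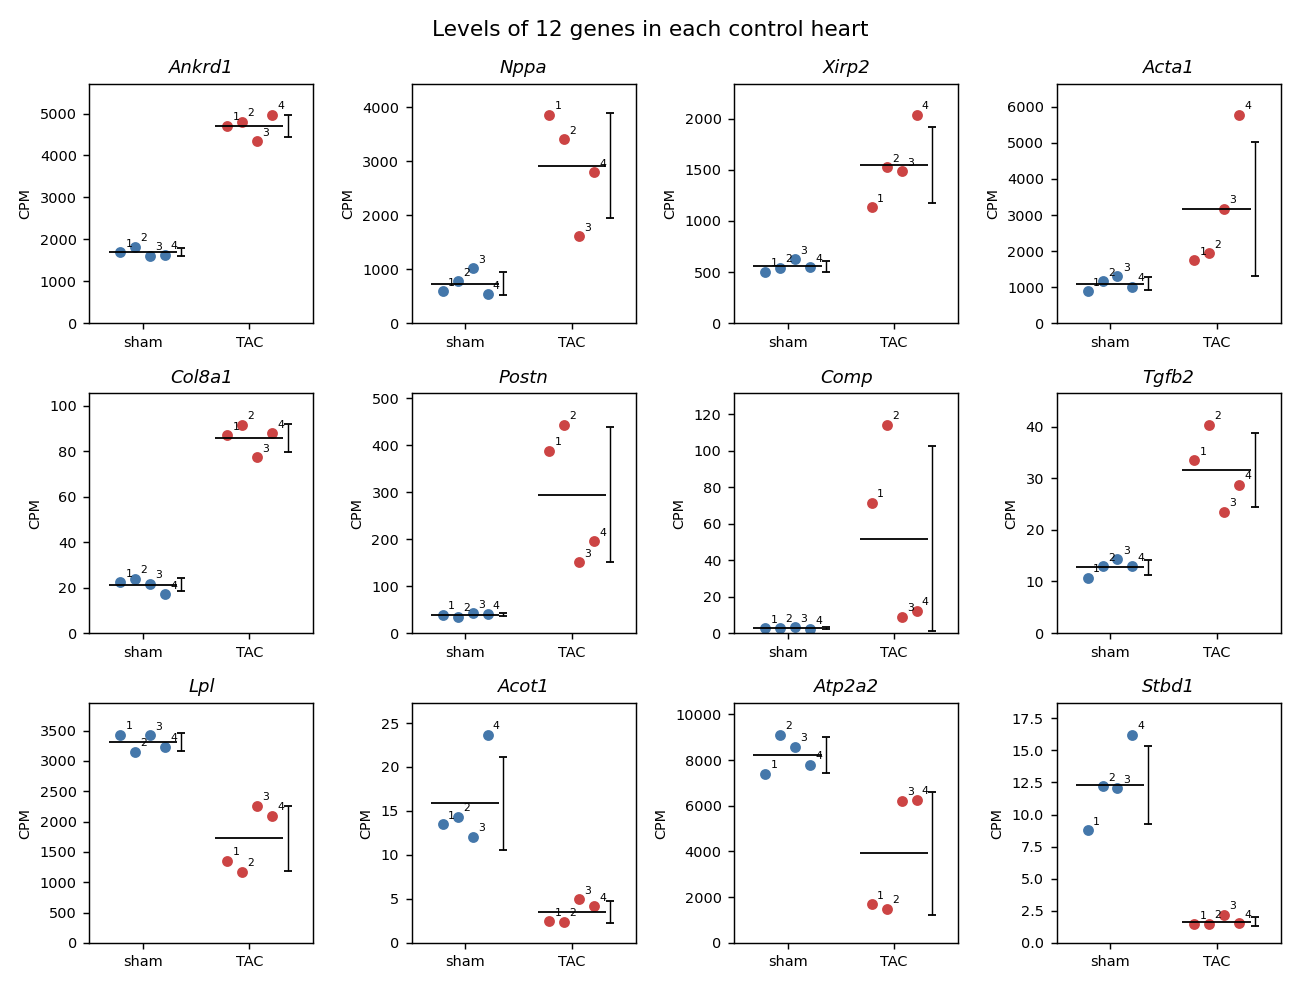
Level of 12 genes (y axis, CPM, from 0) in each of the 4 sham (blue) and 4 TAC (red) control hearts, numbered by replicate. Horizontal lines are means and error bars are SD (n = 4); Ankrd1, Col8a1 and Stbd1 show 4 close TAC hearts, whereas Postn, Comp and Atp2a2 show replicates 1 and 2 apart from 3 and 4.

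Many matrix genes rose. Of the 39 collagen chains tested (of 42), 14 rose and 1 fell (Col6a6), with a median log2 fold change of 0.73, beside 2.5% called higher and 1.25% called lower among all genes. The call of Col6a6 was lost in 4 of the 8 fits without 1 heart (sham replicate 2 or 4, TAC replicate 1 or 2; adjusted p up to 0.0697). The main fibrillar chains of scar tissue were among them. Col1a1 was measured at 72.2, 87.6, 79.2 and 83.9 CPM in sham and 233, 225, 132 and 159 CPM in TAC hearts (log2 fold change 1.21 ± 0.21 (SE), adjusted p = 0.00561), and Col3a1 at 139, 178, 145 and 193 and 347, 327, 219 and 271 CPM (log2 fold change 0.83 ± 0.17, adjusted p = 0.0137). Each TAC heart was above each sham heart, and replicates 3 and 4 were nearer to sham. The call of Col3a1 was lost in 4 of the 8 fits without 1 heart (adjusted p up to 0.0534), and Col1a1 was called in all of them. Those of the chains Col5a2, Col14a1 and Col9a2 were lost in 6, 5 and 3 of the 8 fits. Between 10 and 15 collagen chains were called higher in these fits.

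Col8a1, a short-chain collagen of vessel walls and remodeled matrix (ENSMUSG00000068196, chr16:57624258-57754737), changed evenly. It stood at 22.4, 23.9, 21.7 and 17.1 CPM in sham hearts and 86.996, 91.7, 77.4 and 88.1 CPM in TAC hearts, and the TAC hearts spanned 0.25 on the log2 scale, beside 0.82 for Col1a1 (log2 fold change 2.02 ± 0.18, adjusted p = 5.56e-05). Its partner chain Col8a2 was less even, at 1.04, 0.975, 0.713 and 0.952 CPM in sham and 7.75, 7.91, 1.97 and 2.98 CPM in TAC hearts (log2 fold change 2.48 ± 0.45, adjusted p = 0.00675). Col12a1, which decorates collagen fibrils, rose from 1.16, 1.05, 1.69 and 0.987 CPM to 14.9, 16.7, 6.38 and 7.99 CPM (log2 fold change 3.23 ± 0.44, adjusted p = 0.00107). Basement membrane chains differed, since Col4a3 rose (3.57, 6.27, 6.05 and 5.59 CPM in sham, 18.4, 15.04, 9.97 and 13.9 CPM in TAC, log2 fold change 1.41 ± 0.23, adjusted p = 0.00435) and Col4a1 did not pass the test (589.9, 450.1, 532 and 491 CPM in sham, 859, 866, 441 and 478 CPM in TAC, adjusted p = 0.311). Without TAC replicates 1 and 2, 3 of the 39 chains were called higher and none lower, and the median was 0.37.

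Matricellular proteins, which signal to cells from the matrix rather than build it, included steep changes. Among 21, 8 rose (Postn, Ccn5, Thbs3, Thbs4, Sparc, Comp, Cilp and Cthrc1) and 1 fell (Thbs1). The calls of Thbs3, Sparc and Cthrc1 were lost in 6 of the 8 fits without 1 heart, and Cthrc1 overlapped between the groups. Without TAC replicates 1 and 2, 4 of the 21 were called higher. Comp, a cartilage matrix protein that binds collagen (ENSMUSG00000031849, chr8:70373558-70382066), was measured at 2.78, 2.83, 3.24 and 2.03 CPM in sham and 71.6, 114, 8.98 and 12.3 CPM in TAC hearts (log2 fold change 4.25 ± 0.78 (SE), adjusted p = 0.00741). TAC replicates 1 and 2 were far above replicates 3 and 4, which were themselves above every sham heart. Periostin (Postn), made by activated fibroblasts, stood at 38.97, 34.6, 42.8 and 39.7 CPM and 388, 443, 150.2 and 195 CPM in the same order (log2 fold change 2.92 ± 0.36, adjusted p = 0.000581). Cilp, which binds TGF-β in the matrix, was at 10.5, 11.6, 16.1 and 13.7 CPM in sham and 149, 179, 67.996 and 95.6 CPM in TAC hearts (log2 fold change 3.24 ± 0.35, adjusted p = 0.000226). Without TAC replicates 1 and 2, Postn and Cilp were still called higher (log2 fold changes 2.15 and 2.65), whereas Comp was not (1.96, adjusted p = 0.153).

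Thbs1, a thrombospondin that releases latent TGF-β, was the only called member that fell. It was at 243, 213, 262 and 54.97 CPM in sham hearts and 28.2, 46.1, 19.5 and 30.1 CPM in TAC hearts, so that sham replicate 4 was the lowest of its group but still above every TAC heart (log2 fold change -2.64 ± 0.50, adjusted p = 0.00811). Thbs4, which is induced in stressed heart muscle, rose from 6.72, 6.32, 8.66 and 5.16 CPM to 70.4, 85.3, 24.3 and 31.8 CPM (log2 fold change 2.98 ± 0.41, adjusted p = 0.00109). Ccn2, a growth factor gene widely used as a readout of TGF-β and mechanical stress, overlapped between the groups (194, 172, 192 and 131 CPM in sham, 257, 359.9, 163 and 308 CPM in TAC hearts, log2 fold change 0.66 ± 0.23, adjusted p = 0.0913). Its relative Ccn5 rose (2.39, 4.12, 3.06 and 4.69 CPM in sham, 43.2, 43.2, 10.8 and 18.3 CPM in TAC hearts, log2 fold change 3.02 ± 0.41, adjusted p = 0.00109).

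Among 16 elastic fiber and microfibril genes, 3 rose (Ltbp2, Mfap4 and Mfap5) and 1 fell (Efemp1). Between 3 and 5 of the 16 were called higher in the fits without 1 heart. The call of Efemp1 was lost without sham replicate 4 or TAC replicate 1 or 2 (adjusted p up to 0.0615). Ltbp2, a microfibril protein related to the latent TGF-β binding proteins, was at 7.77, 5.83, 7.78 and 8.58 CPM in sham and 85.1, 111, 33.3 and 45.5 CPM in TAC hearts (log2 fold change 3.20 ± 0.39 (SE), adjusted p = 0.000573). Of 9 small leucine-rich proteoglycans, which organize collagen fibrils, 3 rose. Fmod was at 0.606, 0.833, 1.33 and 0.582 CPM in sham and at 20.5, 24.7, 3.196 and 5.49 CPM in TAC hearts (log2 fold change 4.00 ± 0.70, adjusted p = 0.00581), and Bgn went from 179.5, 180.0, 201 and 208 CPM to 638, 643, 336 and 446 CPM (log2 fold change 1.42 ± 0.25, adjusted p = 0.00658). Prelp, the third, lost its call in 6 of the 8 fits without 1 heart. None of the 9 was called without TAC replicates 1 and 2 (edgeR, log2 fold change 2.37 and adjusted p = 0.116 for Fmod, 1.02 and 0.0944 for Bgn). Of 17 genes of collagen processing and crosslinking, only the procollagen protease enhancer Pcolce was called (log2 fold change 0.94 ± 0.20, adjusted p = 0.0141), and not without TAC replicate 1 or 2. Of the 17, 0 to 6 were called higher in the fits without 1 heart. The crosslinking enzyme Lox was at 5.54, 5.05, 5.805 and 6.68 CPM in sham and 17.1, 25.1, 6.16 and 7.16 CPM in TAC hearts, where only replicates 1 and 2 stood far above sham (adjusted p = 0.119). By edgeR's exact test on the 8 control hearts, Lox was called higher.

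Of 21 matrix proteases and inhibitors, 4 rose (Mmp23, Adamts8, Adamtsl2 and Timp1) and 1 fell (Mmp3), and without TAC replicates 1 and 2, 2 were called higher and none lower. Mmp23, a membrane-bound metalloprotease, was at 5.28, 5.61, 4.102 and 6.29 CPM in sham and 16.8, 16.4, 10.002 and 12.8 CPM in TAC hearts (log2 fold change 1.39 ± 0.19, adjusted p = 0.00113). Timp1, an inhibitor of these proteases, was at 5.76, 1.05, 1.96 and 1.96 CPM and 12.97, 20.9, 4.902 and 4.69 CPM, and the groups overlapped because sham replicate 1 was high (log2 fold change 2.02 ± 0.51, adjusted p = 0.033). Its call was lost in 5 of the 8 fits without 1 heart, with adjusted p up to 0.117. Stromelysin (Mmp3) was at 4.04, 3.38, 5.06 and 11.6 CPM in sham and 1.25, 1.82, 0.563 and 0.456 CPM in TAC hearts (log2 fold change -2.56 ± 0.65, adjusted p = 0.033), and its call was lost without sham replicate 3 or 4 or TAC replicate 1.

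Of 36 genes of the TGF-β family (ligands, inhibitors, receptors and SMADs), 6 rose (Tgfb2, Tgfb3, Gdf15, Inhba, Bmp4 and the inhibitor Fstl3, of which the antisense gene Prss57 covers 47.3%) and none fell, with a median of 0.22. Tgfb2 was measured at 10.7, 12.9, 14.3 and 12.9 CPM in sham and 33.5, 40.4, 23.5 and 28.8 CPM in TAC hearts, where each TAC heart was well above the highest sham heart (log2 fold change 1.31 ± 0.15 (SE), adjusted p = 0.00037). Bmp4, a ligand of the BMP branch, was above sham in every TAC heart (4.596, 3.81, 3.31 and 3.93 CPM in sham, 15.7, 11.9, 11.6 and 8.74 CPM in TAC, log2 fold change 1.61 ± 0.18, adjusted p = 0.000352). Both held their call without TAC replicates 1 and 2, when only these 2 of the 36 were called and the median was 0.056. Tgfb3 rose as well (13.3, 15.6, 14.1 and 13.9 CPM in sham, 35.7, 39.2, 18.8 and 24.3 CPM in TAC, log2 fold change 1.05 ± 0.24, adjusted p = 0.0194), but not in 5 of the 8 fits without 1 heart. The call of Inhba was lost with only the 8 control hearts in the fit (edgeR's quasi-likelihood test, adjusted p = 0.0548).

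The ligand Tgfb1 overlapped between groups (37.6, 24.8, 31.7 and 25.8 CPM in sham, 51.9, 61.2, 27.8 and 31.2 CPM in TAC hearts, log2 fold change 0.52 ± 0.26, adjusted p = 0.207). Gdf15, a stress hormone secreted by the failing heart, was uneven. It stood at 7.595, 3.54, 6.31 and 9.13 CPM in sham and 66.03, 70.9, 8.41 and 15.3 CPM in TAC hearts, and replicate 3 lay within the sham range (log2 fold change 2.60 ± 0.56, adjusted p = 0.0159). The call of Gdf15 was lost without TAC replicate 1 or 2 or sham replicate 2 or 3 (adjusted p up to 0.0551).

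Markers of other cell types were examined alongside. Of 18 markers of activated fibroblasts, 7 rose and 1 fell, with a median log2 fold change of 1.21, although 6 of the 7 (all but the transcription factor Meox1) are also counted among the matrix genes above. The call of Meox1 was lost in 5 of the 8 fits without 1 heart. Of the 18, 4 were called higher and none lower without TAC replicates 1 and 2, with a median of 0.50. The 6 defining markers (Postn, Cthrc1, Fap, Meox1, Comp and Cilp) summed to 64.5 to 80.9 CPM in sham hearts and to 679, 822, 255 and 333 CPM in TAC replicates 1 to 4. Smooth muscle α-actin (Acta2), which fell in every TAC heart (log2 fold change -1.27), is not part of this sum. Of 13 resident fibroblast markers, 2 rose (Pi16 and Cd248), 10 had a positive log2 fold change, and the median was 0.51, with 0.70, 0.41, 0.01 and 0.21 in TAC replicates 1 to 4. In the fits without 1 heart, 1 to 3 of the 13 were called higher, and the call of Cd248 was lost in 4 of the 8 (sham replicate 2 or 4, TAC replicate 1 or 2; adjusted p up to 0.0958). The 7 defining fibroblast markers summed to 1429 to 1556 CPM in sham hearts and to 2165, 2056, 1525 and 1668 CPM in TAC replicates 1 to 4. Pi16 was at 37.1, 43.5, 42.7 and 55.8 CPM in sham and 182, 207, 98.7 and 116 CPM in TAC hearts (log2 fold change 1.75 ± 0.22, adjusted p = 0.000678). Endothelial markers summed to 701 to 817 CPM in sham hearts and to 1399, 1540, 753 and 721 CPM in TAC replicates 1 to 4. Of 22 genes on the endothelial list, 2 rose (Egfl7 and Esm1) and 1 fell, the angiopoietin gene Angpt1. Angpt1, a secreted ligand that is not among the summed markers, was at 11.4, 18.4, 16.3 and 15.7 CPM in sham and 2.51, 2.83, 5.299 and 5.23 CPM in TAC hearts (log2 fold change -1.96 ± 0.28, adjusted p = 0.00144). The calls of Egfl7 and Esm1 were lost in 6 of the 8 fits without 1 heart, and in these fits 0 to 7 of the 22 were called higher. None of 20 macrophage, 14 lymphocyte or 9 erythroid markers was called (edgeR's quasi-likelihood test; 3, 1 and 0 were higher at an unadjusted p under 0.05, and 0 lower, beside 15.4% and 11.2% of all genes). Summed macrophage markers were 174 to 204 CPM in sham and 173 to 216 CPM in TAC hearts. The part of cell composition in the matrix results was not tested.

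A number of genes of fatty acid use fell, and levels were lowest in TAC replicates 1 and 2, where the summed cardiomyocyte markers were low as well. The part of those markers in the metabolic results was not tested. Of 33 genes of fatty acid uptake and oxidation, 8 fell and none rose, and all 33 had a negative log2 fold change, with a median of -0.97. Acot1, a thioesterase that frees fatty acids from coenzyme A, was at 13.5, 14.4, 12.1 and 23.7 CPM in sham and 2.47, 2.43, 4.95 and 4.16 CPM in TAC hearts (log2 fold change -2.18 ± 0.24 (SE), adjusted p = 0.000352). Each TAC heart was below each sham heart. Acot1 shares 15.0% of its 75-base stretches with Acot2 and other family members, and Acot2 fell too (55.1, 60.9, 56.2 and 84.3 CPM in sham, 16.8, 13.5, 33.8 and 29.6 CPM in TAC, log2 fold change -1.45 ± 0.26, adjusted p = 0.00741). The fatty acid transport protein Slc27a1 was at 154, 169.7, 146 and 204 CPM in sham and 69.05, 45.7, 96.1 and 85.8 CPM in TAC hearts (log2 fold change -1.18 ± 0.19, adjusted p = 0.00389).

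Lipoprotein lipase (Lpl), which frees fatty acids at the vessel wall, was at 3435, 3152, 3427 and 3234 CPM in sham and 1352, 1176, 2262 and 2099 CPM in TAC hearts (log2 fold change -0.94 ± 0.20, adjusted p = 0.0154). Its call was lost without TAC replicate 1 (adjusted p up to 0.0602 in the fits without 1 heart). The call of Lpl was also lost with only the 8 control hearts in the fit and by limma-voom with sample weights. Pdk4, a kinase that turns the heart from glucose to fat, was at 204, 238, 246 and 402 CPM in sham and 83.5, 61.5, 137 and 119.8 CPM in TAC hearts (log2 fold change -1.44 ± 0.33, adjusted p = 0.0219), and its call was lost without sham replicate 4 or TAC replicate 1 or 2. The calls of Hadh, Acaa2 and Mlycd were lost in 6 of the 8 such fits. For the trifunctional enzyme Hadha, the levels were 1067, 1205, 1128 and 1274 CPM in sham and 233, 194, 894 and 914 CPM in TAC hearts; all TAC hearts were below sham, but with a gap of several-fold between replicates the test was not passed (adjusted p = 0.143). Without TAC replicates 1 and 2, 2 of the 33 genes were called lower and the median was -0.37. Between 3 and 16 were called lower in the fits without 1 heart.

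The tricarboxylic acid cycle and the nuclear-encoded respiratory chain followed the same order of hearts with no gene called. The 16 genes of the cycle had medians of -1.73, -2.06, -0.23 and -0.20 (log2 difference from the sham mean) in TAC replicates 1 to 4, and the 55 respiratory chain genes had -0.59, -0.84, -0.19 and -0.19. At an unadjusted p under 0.05, 11 of the 16 and 37 of the 55 were lower and none higher by edgeR's quasi-likelihood test, beside 11.2% lower among all genes. In the fits without 1 heart, up to 5 of the 16 and up to 6 of the 55 were called lower. Citrate synthase (Cs) may serve as an example, at 947, 1118, 1029.8 and 959.7 CPM in sham and 245, 190.1, 806 and 827 CPM in TAC hearts (log2 fold change -0.97 ± 0.41, adjusted p = 0.151). Transcripts from the mitochondrial chromosome went the other way in replicates 1 and 2. The 37 had medians of 0.72, 0.70, 0.07 and -0.52 in TAC replicates 1 to 4, and none was called (3 were higher at an unadjusted p under 0.05). Counting without them left 517 genes higher and 254 lower.

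Breakdown of branched-chain amino acids, another fuel of the heart, was represented by 18 genes, of which 2 fell and none rose (median -0.81). These were Bckdhb, a subunit of the branched-chain ketoacid dehydrogenase (43.6, 48.01, 41.9 and 43.04 CPM in sham, 12.9, 12.01, 30.6 and 31.99 CPM in TAC, log2 fold change -1.01 ± 0.27, adjusted p = 0.0364), and Ppm1k, the phosphatase that activates it (log2 fold change -1.12 ± 0.28, adjusted p = 0.0308). Both calls were lost in 6 of the 8 fits without 1 heart, in which 0 to 9 of the 18 were called lower. None was without TAC replicates 1 and 2 (edgeR, median -0.26). At an unadjusted p under 0.05, 14 of the 18 were lower. None of 25 genes of glucose uptake and glycolysis was called (edgeR, 1 higher and 6 lower at an unadjusted p under 0.05, beside 15.4% and 11.2% of all genes), with a median of -0.39.

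Contractile and calcium-handling genes were low in TAC replicates 1 and 2, as were the summed cardiomyocyte markers, and near sham in replicates 3 and 4. No gene among 16 of the contractile sarcomere or 15 of calcium handling was called (edgeR, 0 higher and 5 lower, and 2 higher and 5 lower, at an unadjusted p under 0.05). Up to 2 sarcomere genes were called lower in the fits without 1 heart. For calcium handling, up to 1 gene was called higher and up to 1 lower. The calcium pump of the sarcoplasmic reticulum, Atp2a2, was at 7404, 9120.1, 8595 and 7801 CPM in sham and 1685, 1487, 6225 and 6264 CPM in TAC hearts. All TAC hearts were below sham, and replicates 1 and 2 were far below 3 and 4 (log2 fold change -1.07 ± 0.48 (SE), adjusted p = 0.17). The ryanodine receptor Ryr2, the calcium release channel, showed the same order (984, 1192, 1159 and 988 CPM in sham, 255, 215, 862 and 836 CPM in TAC, adjusted p = 0.135). Myl2, the ventricular myosin light chain, varied less (5056, 4964, 4911 and 5007 CPM in sham, 3979, 3354, 4935 and 4629 CPM in TAC, adjusted p = 0.359).

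Of 18 potassium and pacemaker channel genes, 3 fell (Kcne1, Kcnv2 and Hcn2) and none rose, with a median of -0.81. At an unadjusted p under 0.05, 11 of the 18 were lower. Between 0 and 10 were called lower in the fits without 1 heart, and without TAC replicates 1 and 2 none was (edgeR, median -0.45). Kcnv2, a modifier subunit of potassium channels, was at 11.5, 10.9, 7.43 and 11.4 CPM in sham and 1.87, 0.759, 5.001 and 2.98 CPM in TAC hearts (log2 fold change -1.95 ± 0.41, adjusted p = 0.0136). Its call was lost without TAC replicate 1, and also with only the 8 control hearts in the fit. The pacemaker channel Hcn2 was at 40.9, 51.5, 47.3 and 40.3 CPM in sham and 14.9, 10.7, 29.5 and 26.3 CPM in TAC hearts (log2 fold change -1.14 ± 0.29, adjusted p = 0.0304). The calls of Hcn2 and Kcne1 were lost in 6 of the 8 fits without 1 heart. Kcnip2, a subunit of the transient outward current, was below sham in every TAC heart (229, 228, 224 and 186 CPM in sham, 51.9, 41.1, 128 and 151 CPM in TAC) without passing edgeR's quasi-likelihood test (adjusted p = 0.0729). Kcnip2 was called lower by edgeR's exact test on the 8 control hearts, by DESeq2 and by limma-voom, and without TAC replicate 3 or 4 (adjusted p down to 0.0176).

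**Figure D3:**
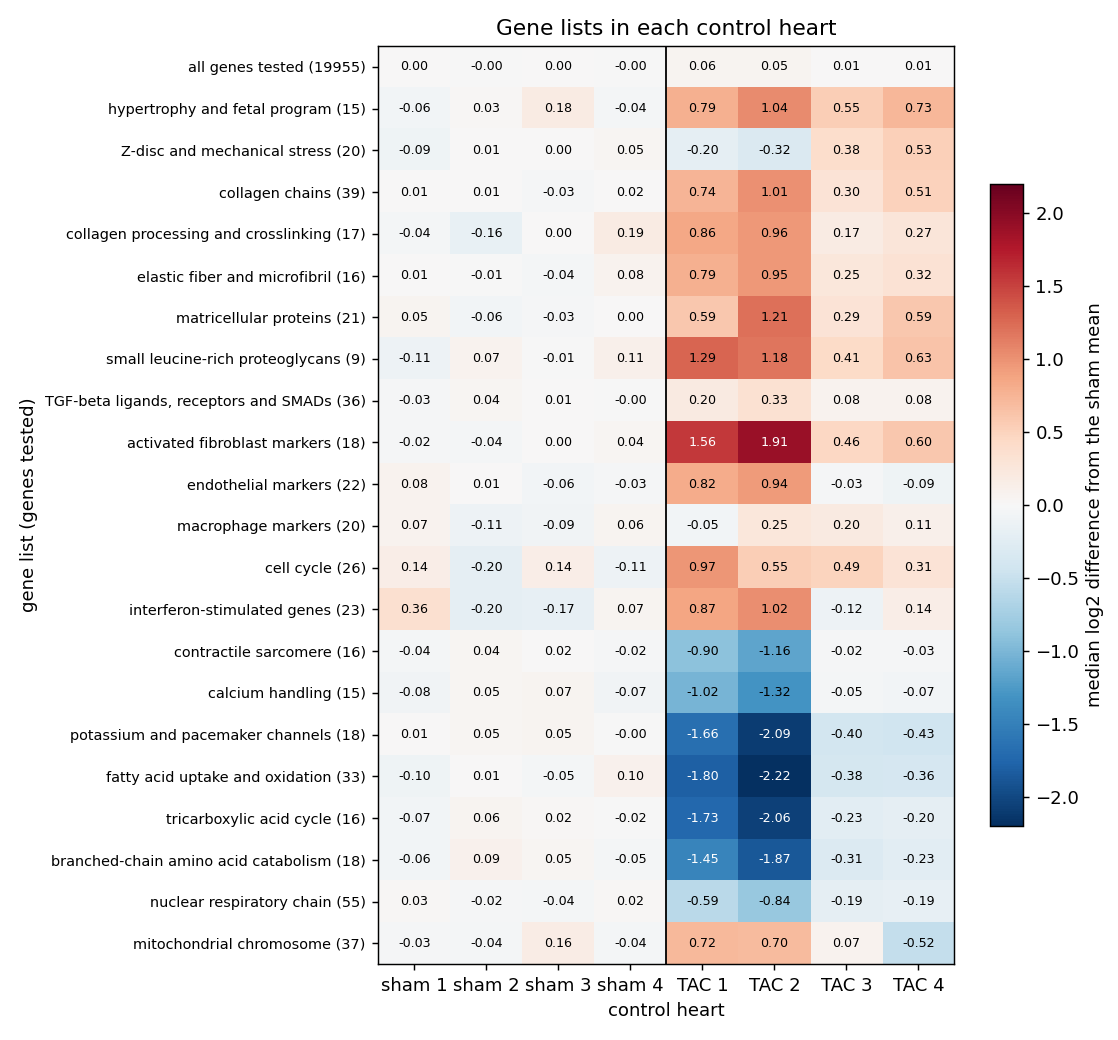
Median log2 difference from the mean of the 4 sham hearts (color and printed value) for 21 gene lists and for all genes tested (rows, with the number of genes) in each control heart (columns). TAC replicates 1 and 2 have the strongest values in most lists, such as -1.80 and -2.22 for fatty acid genes against -0.38 and -0.36 in replicates 3 and 4, whereas Z-disc genes have 0.38 and 0.53 in replicates 3 and 4.

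Several of the largest falls lay outside these lists. Stbd1, which tethers glycogen to membranes (ENSMUSG00000047963, chr5:92603041-92606579), had the smallest adjusted p of the genes named here. It was at 8.79, 12.2, 12.03 and 16.2 CPM in sham and 1.44, 1.48, 2.19 and 1.53 CPM in all 4 TAC hearts (log2 fold change -2.89 ± 0.24 (SE), adjusted p = 4.21e-05). Slc41a3, a magnesium transporter, was at 48.3, 59.5, 58.1 and 45.2 CPM in sham and 10.04, 7.34, 13.9 and 14.9 CPM in TAC hearts (log2 fold change -2.19 ± 0.28, adjusted p = 0.000691). Errfi1, an inhibitor of the EGF receptor, was spread widely among sham hearts (85.9, 236, 147 and 71.4 CPM) and was lower in every TAC heart (23.1, 39.6, 27.4 and 37.1 CPM, log2 fold change -2.09 ± 0.40, adjusted p = 0.00856). The phospholipase Pla2g5 fell by 2.296 on the log2 scale (adjusted p = 0.00741), and the muscle fructose bisphosphatase Fbp2 by 2.31 (adjusted p = 0.0212). The call of Fbp2 was lost without sham replicate 4 or TAC replicate 1 or 2, and also with only the 8 control hearts in the fit. The pseudogene Morf4l1-ps1, at -2.19, lost its call without sham replicate 4 or TAC replicate 1 or 2. It shares 90.2% of its 75-base stretches with Morf4l1 and other loci, and its value is uncertain.

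Falls in every TAC heart were also seen in Egflam, a matrix protein of the synapse and basement membrane (11.9, 15.5, 13.04 and 14.3 CPM in sham, 5.49, 4.74, 7.204 and 5.88 CPM in TAC, log2 fold change -1.23 ± 0.12, adjusted p = 0.000138), and Adam22, a membrane protein without protease activity (12.4, 12.99, 12.7 and 12.9 CPM in sham, 5.46, 6.41, 7.7004 and 7.04 CPM in TAC, log2 fold change -0.93 ± 0.11, adjusted p = 0.000356). Among the rises outside the lists, Ackr4, a scavenger receptor for chemokines, spanned 0.36 on the log2 scale among the TAC hearts. It went from 1.93, 3.22, 1.702 and 3.08 CPM in sham to 15.6, 12.8, 12.2 and 15.2 CPM in TAC hearts (log2 fold change 2.49 ± 0.23, adjusted p = 5.56e-05). Nxpe4 was at 0.814, 0.786, 0.762 and 0.723 CPM in sham and 13.7, 17.6, 9.82 and 1.404 CPM in TAC hearts, with replicate 4 not far above sham (log2 fold change 3.78 ± 0.79, adjusted p = 0.0137). Its call was lost by limma-voom with sample weights (adjusted p = 0.145). Angptl7 and the metalloprotease Adamts20 rose by log2 fold changes of 2.68 ± 0.54 and 2.68 ± 0.46 (adjusted p = 0.0121 and 0.00572).

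Genes of the clock, of the cell cycle and of stress responses were also examined. Of 19 clock genes, 2 rose (Per3 and Dbp) and 2 fell (Npas2 and Nfil3). Per3, a repressor of the clock, was at 18.4, 17.3, 17.4 and 20.3 CPM in sham and 40.8, 41.6, 46.9 and 43.98 CPM in TAC hearts (log2 fold change 1.24 ± 0.22 (SE), adjusted p = 0.00694). Dbp, a clock output factor, was at 28.6, 21.1, 37.001 and 34.97 CPM in sham and 71.4, 59.1, 73.7 and 75.9 CPM in TAC hearts (log2 fold change 1.20 ± 0.28, adjusted p = 0.0219). The calls of Dbp, Nfil3 and Npas2 were lost in 3, 5 and 8 of the 8 fits without 1 heart, and that of Per3 in none. The time of day of collection is not given in the sources used here, and its part in these values was not tested. The nuclear receptor Nr4a3 was the only 1 of 22 immediate early genes called (27.8, 72.7, 49.9 and 36.9 CPM in sham, 12.2, 11.5, 9.37 and 18.2 CPM in TAC, log2 fold change -1.87 ± 0.33, adjusted p = 0.00654). Between 1 and 2 of the 22 were called lower in the fits without 1 heart. Sham replicate 2 stood apart on this list. The median log2 difference from the sham mean was -0.34, 0.93, -0.24 and -0.32 in sham replicates 1 to 4.

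Of 26 cell cycle genes, 3 rose (Ccna2, Kif11 and Tyms) and none fell, with a median of 0.69. At an unadjusted p under 0.05, 16 of the 26 were higher and none lower, beside 15.4% and 11.2% of all genes, and 7 passed the adjusted p without regard to the size of the fold change. The proliferation marker Mki67 was above sham in every TAC heart (8.47, 6.09, 6.99 and 6.13 CPM in sham, 15.1, 10.3, 10.6 and 10.8 CPM in TAC) but below the threshold of size (log2 fold change 0.75 ± 0.21, adjusted p = 0.0491). In the fits without 1 heart, 0 to 9 of the 26 were called higher, and the calls of Ccna2, Kif11 and Tyms were lost in 5, 3 and 6 of the 8. Of 18 heat shock genes, 2 fell (Hspa5 and Dnaja1) and none rose, only 1 had a positive log2 fold change, and 11 were lower and none higher at an unadjusted p under 0.05. Of 23 genes of the integrated stress response, 2 rose (Gdf15 and Nupr1) and 1 fell (Cebpb). In the fits without 1 heart, 0 to 5 heat shock genes were called lower and 0 to 2 stress response genes higher, and the calls of Hspa5, Dnaja1 and Nupr1 were lost in 5, 6 and 6 of the 8. The call of Cebpb was lost without TAC replicate 1 or 2. None of 23 interferon-stimulated genes was called (edgeR, 9 higher and 0 lower at an unadjusted p under 0.05, beside 15.4% and 11.2% of all genes), and their medians were 0.87, 1.02, -0.12 and 0.14 in TAC replicates 1 to 4. Between 0 and 2 of the 23 were called higher in the fits without 1 heart. Without TAC replicates 1 and 2, none was (edgeR), and the median log2 fold change was -0.02.

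How evenly the TAC hearts responded was described on genes that each heart had no part in choosing. For each heart, genes were called from the other hearts, and the median log2 difference of the left-out heart from the sham mean was taken over them. TAC replicates 1 and 2 exceeded the response of the other 3 TAC hearts. Over the 191 and 208 genes called higher without them, their medians were 1.66 and 1.66, which was 116% and 124% of the median fold change in the other hearts. Over the 85 and 101 genes called lower, they were lower by 1.52 and 1.72. TAC replicates 3 and 4 responded less, with medians of 0.52 over 870 and 0.43 over 1016 genes called higher, or 43.3% and 36.5% of the fold change in the other hearts. Over the 551 and 547 genes called lower, they were lower by 0.51 and 0.52. With only control hearts in the fit, the medians of TAC replicates 3 and 4 were 0.70 and 0.72 over genes called higher, and they were lower by 0.81 and 0.95 over genes called lower. These sets of genes differ between hearts. The sham hearts that helped to choose the genes also gave the mean from which a left-out TAC heart was measured. The fold change in the other hearts had been selected to pass the thresholds. Both can bias the medians and percentages. Over the common set of 498 genes called higher, which all 4 TAC hearts helped to choose, the medians were 1.49, 1.54, 0.80 and 0.82 in TAC replicates 1 to 4, and the 250 genes called lower were lower by 1.52, 1.72, 0.89 and 1.01.

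Direction was shared more widely than size. Of the genes called higher without it, 99.5%, 98.1%, 92.8% and 83.7% were above the sham mean in TAC replicates 1 to 4, and 98.4%, 96.6%, 74.7% and 61.1% were above all 4 sham hearts. Of those called lower, 100%, 99.0%, 97.8% and 95.4% were below the sham mean. Sham hearts treated in the same way, against the other 3, had medians of 0.02 to 0.16 toward the called direction, and 50.8% to 68.03% of genes on that side. Because the sham hearts are shared by all these fits, the values of different TAC hearts are not independent.

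**Figure D4:**
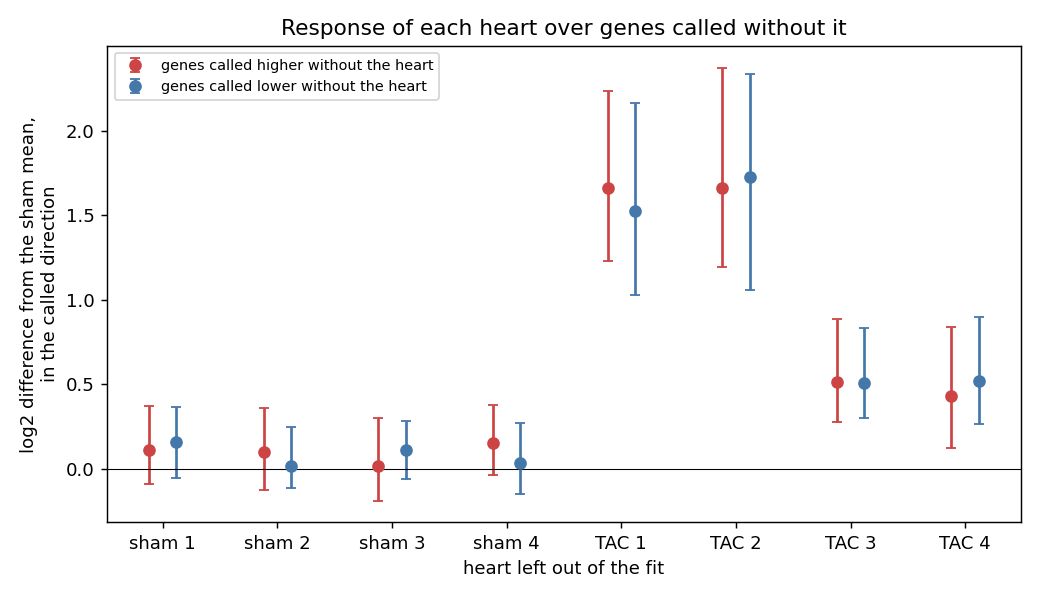
Median log2 difference from the sham mean, in the called direction (y axis; error bars are the quartiles over genes), for each control heart left out of the fit (x axis), over genes called higher (red) or lower (blue) from the remaining hearts. TAC replicates 1 and 2 lie at 1.52 to 1.72, TAC replicates 3 and 4 at 0.43 to 0.52, and the sham hearts at 0.02 to 0.16.

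Of the 498 genes called higher, 171 were at least 0.8 (log2) above the sham mean in all 4 TAC hearts, and 9 had a TAC heart at or below it. Of the 250 called lower, 112 were at least 0.8 below it in all 4, and none had a TAC heart at or above it. TAC replicate 1 or 2 was the highest in 184 and 272 of the 498 genes, and TAC replicate 3 or 4 in 19 and 23. The difference also varied with the level of the gene. In protein-coding genes with a mean log2 CPM above 9, the median difference from sham was -0.85, -0.996, -0.09 and -0.10 in TAC replicates 1 to 4, and in those at 1 to 3 it was 0.17, 0.18, 0.06 and 0.04. With exon length, medians varied only between -0.13 and 0.02. The mitochondrial share of replicates 1 and 2 moved with these differences, and its part in them was not tested.

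Single TAC hearts also stood apart in a few genes. In TAC replicate 3, CT010467.1, annotated as a ribosomal RNA, was at 38815 CPM, against 551 to 1046 CPM in the other 7 hearts. Rn7s1, an RNA of the signal recognition particle, was at 303 CPM there, against 3.51 to 9.27 CPM. Rn7s1, its near-identical copy Rn7s2, and AY036118, which lies within CT010467.1, were high in this heart alone and are counted among the 498 genes called higher (edgeR's quasi-likelihood test, adjusted p = 0.0348, 0.0348 and 0.0435). The gene Gm42418, on the other strand, covers all of AY036118 and 73.9% of the exonic length of CT010467.1. Their calls were lost without TAC replicate 3, and also without any 1 of the sham hearts. Kctd12, an auxiliary subunit of GABA-B receptors, had no count in TAC replicate 1, which allows up to 0.0545 CPM (3 counts), and was at 44.8 to 69.9 CPM in the other hearts. An antisense gene, Gm26778, covers 62.8% of its exonic length, and reads of both cannot be told apart if the counting ignored strand. The heat shock genes Hspa1a and Hspa1b were lowest in TAC replicate 1 (11.3 and 13.4 CPM) and ranged from 45.05 to 445 and from 67.8 to 626 CPM among sham hearts. They share 54.2% and 55.8% of their 75-base stretches with each other and with Hspa1l. Cyp26b1, which degrades retinoic acid, was at 46.5 CPM in TAC replicate 2 and at 2.25 to 14.2 CPM elsewhere. In TAC replicate 4, Acta1 and the splicing kinase gene Srpk2 (62.6, 64.4, 69.2 and 128 CPM in TAC hearts) were the highest of all 8 hearts.

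The hearts of Trbp-cKO mice gave a second TAC comparison that shares no heart with the first. There, 645 genes (3.23%) were higher and 467 (2.34%) lower after TAC. Of the 498 genes higher in control hearts, 432 (86.7%) had a positive log2 fold change in Trbp-cKO hearts and 212 (42.6%) were called higher, which was 32.9% of the 645. Of the 250 lower genes, 209 (83.6%) had a negative one and 84 (33.6%) were called lower, or 18.0% of the 467. Only 6 and 3 genes were called in the opposite direction. Shares of each sign over all genes tested are not given here, so 86.7% and 83.6% cannot be read against them. The median change in the called direction was 1.22 and 1.21 in control hearts and 0.68 and 0.73 in Trbp-cKO hearts, and the genes had been selected on the control hearts.

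Control and Trbp-cKO mice also differed in receiving tamoxifen, so that loss of Trbp and the drug cannot be told apart. The test of a difference in response between them (the interaction) called 89 genes higher (0.446%) and 85 lower (0.426%). Of the genes called in control hearts, 28 of the 498 and 19 of the 250 had an interaction adjusted p of at most 0.05, beside 209 (1.05%) of all genes tested. The genes were called on control hearts that also enter the interaction, so nothing is read from the difference in share. Ankrd1, Col8a1 and Nmrk2 had log2 fold changes of 1.33, 2.28 and 2.36 in Trbp-cKO hearts, and their interactions did not pass (adjusted p = 0.759, 0.657 and 0.473). Thbs1 fell in control hearts and rose in Trbp-cKO hearts (log2 fold change 2.66, interaction adjusted p = 0.00273). Stbd1 fell in control hearts and had a log2 fold change of 0.61 in Trbp-cKO hearts (interaction adjusted p = 0.000336). Tgfb2 and Nppb rose more in Trbp-cKO hearts (2.41 and 2.88, interaction adjusted p = 0.026 and 0.03). Per3 and Dbp rose in control hearts and fell in Trbp-cKO hearts (-0.88 and -1.39, interaction adjusted p = 0.00635 and 0.00646).

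**Figure D5:**
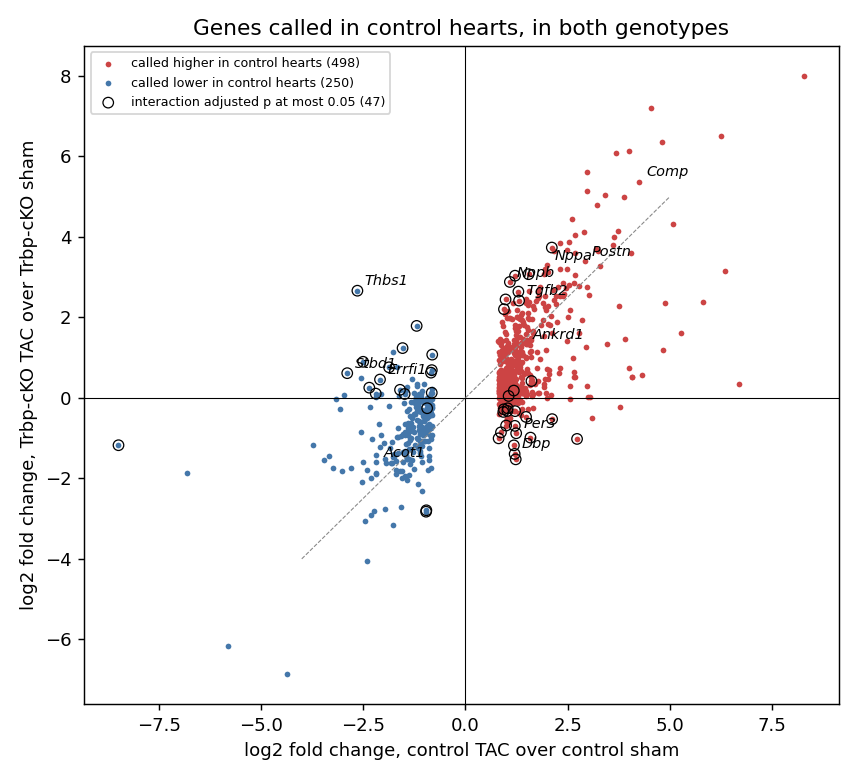
Log2 fold change after TAC in Trbp-cKO hearts (y axis) against that in control hearts (x axis) for the genes called higher (red, 498) or lower (blue, 250) in control hearts. The dashed line marks equal change, and the 47 circled genes have an interaction adjusted p of at most 0.05, among them Thbs1 and Stbd1 with opposite signs in control and Trbp-cKO hearts.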

How the data were processed

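Ventricular RNA of 16 male mice, 4 per group, was oligo(dT)-selected and sequenced in pairs. Per the labels and methods, the authors used cutadapt 2.3 for trimming and HISAT2 2.1.0 for alignment to GRCm38, assigned reads to genes with StringTie 1.3.4, and the deposited values are whole-number counts of reads per gene. Whether strand was used in counting, and the annotation release, are not given in the sources used here. The table lists 55573 genes, and 19955 passed edgeR's filter on low counts.

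Counts were scaled by TMM and tested with edgeR 4.0.16 (R 4.3.3) by the quasi-likelihood test with Benjamini-Hochberg adjustment, in a fit of all 4 groups. A call needed an adjusted p of at most 0.05 and a log2 fold change of at least 0.8 in size. Fold changes are given with their SE, and CPM refer to the TMM-scaled library. The test was run on simulated counts in which 50 genes each were changed by a log2 fold of 1, -1, 2 and -2. Of these, 62%, 42%, 92% and 92% were called, and there were 2 false calls. The simulation gave each gene the same spread in all groups, so it cannot show how the test handles the wider spread among TAC hearts. The edgeR p-values rest on the spread between hearts within all 4 groups, estimated jointly and drawn toward that of other genes. The 4 hearts per group are described as biological replicates. Libraries of the control hearts held 55552919 to 66195343 counts, and all counts were also halved to see how depth bears on the calls.

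The members and lists were chosen with earlier results of these data known. Genes were named by size and p of change (12 largest per direction and 10 smallest p), by list membership, by widest range over the TAC hearts (10) and by single hearts far from the rest (5 per heart), with a mean log2 CPM of at least 1 for the size and range parts. 1 gene that the rule names is not reported here. Alternatives changed the scaling, filter, test (DESeq2 1.42.0, limma 3.58.1), hearts and thresholds. Promoter sequences were RefSeq's, in GRCm38.p6.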

Additional observations from a re-analysis of the deposited data

Results flagged for a closer look

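In 18 of the 278 sets of 4 hearts looked at, 1 heart lay far from the other 3. Chance gives this in about 1 in 20 sets, but some of these genes were named because 1 heart stood apart, so the number of sets cannot be read against chance. In TAC replicate 3, CT010467.1 was at 38815 CPM, AY036118 at 1475 CPM, Lars2 at 4015 CPM, Rn7s1 at 303 CPM and Rn7s2 at 301 CPM, and Stbd1 was the highest of the TAC hearts at 2.19 CPM. All 75-base stretches of AY036118 also occur in CT010467.1, and those of Rn7s1 and Rn7s2 in each other and in further loci, so these genes are not separate observations. In TAC replicate 1, Mki67 was high at 15.1 CPM and Nfil3 low at 7.67 CPM. Exoc3l2 was at 10.4 CPM in TAC replicate 2, and Srpk2 at 128 CPM in TAC replicate 4. Among sham hearts, replicate 4 stood apart for Cyp26b1 (14.2 CPM), Hadh (405 CPM) and Kcnip2 (186 CPM), replicate 3 for Kcnv2 (7.43 CPM), mt-Co1 (91880.5 CPM) and mt-Nd1 (23812 CPM), replicate 2 for Fos (83.8 CPM), and replicate 1 for Zfp973 (2.87 CPM).

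For 16 of 136 named genes, the TAC response differed between Trbp-cKO and control hearts (edgeR's quasi-likelihood test of the interaction, adjusted p of at most 0.05, which 1.05% of all genes tested passed). All but Ccn2 and Rcan1 were also called in the control hearts, which enter the interaction. The log2 difference, Trbp-cKO minus control, was 5.30 for Thbs1, 3.501 for Stbd1, 3.16 for Ccn2, 2.98 for Cdkn1a, 2.62 for Nr4a3, 2.54 for Errfi1, 2.296 for Slc41a3, 2.01 for Rcan1, 1.88 for Nfil3, 1.79 for Nppb, 1.10 for Tgfb2 and 0.68 for Adam22. It was -2.60 for Dbp, -2.12 for Per3, -1.84 for Efemp1 and -1.20 for Bmp4. Ccn2 had log2 fold changes of 0.66 in control and 3.82 in Trbp-cKO hearts, and Rcan1, an inhibitor of calcineurin, of 0.11 and 2.12.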

How the results depend on the processing

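The counts of 498 higher and 250 lower genes stayed within 1.5 times under scaling by library size alone, without mitochondrial genes, by edgeR's exact test on the 8 control hearts, with both other filters, with halved counts and at a log2 threshold of 1. They were 194 and 110 with only the 8 control hearts in the fit, and 817 and 439 with no threshold on the fold change. DESeq2 called 452 lower genes and limma-voom with sample weights 300 higher. Leaving out 1 heart gave 192 to 1035 higher and 85 to 555 lower genes, and leaving out TAC replicates 1 and 2 gave 87 and 34. Of the 99 named genes called, 43 were called under each of 18 other settings, and 31 without TAC replicates 1 and 2, which is not among the 18. A further 8 named genes that were not called were called under 1 or more of the 18, among them Acta1 and Kcnip2. Over genes called lower without them, TAC replicates 3 and 4 were lower by 0.81 and 0.95 with only control hearts in the fit. The difference in Myh7 share was 4.36 to 7.03 percentage points without 1 heart and 7.41 without correction for length. The causes were not tested.

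The data neither showed nor excluded that replicate numbers pair the hearts. Deviations of same-numbered TAC and sham hearts correlated at 0.30, -0.12, 0.28 and 0.0025 over 12960 genes. TAC replicates 1 and 3 correlated best with the sham heart of their own number, and TAC replicates 2 and 4 did not. With a replicate block, 247 genes were higher and 136 lower.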
